A study of Bubalus bubalis with 12 samples.

Results

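Genes of the machinery that produces hydrogen peroxide and superoxide, 9 in number, were followed in the ruminal wall of water buffaloes: the dual oxidases DUOX1 and DUOX2, their maturation factors DUOXA1 and DUOXA2, the NADPH oxidases NOX1 and NOX4, the phagocyte oxidase subunits CYBA and CYBB, and the organizer subunit NCF1. They were picked by gene name, with the green feed comparison already known, in which DUOX1 and DUOXA1 had stood out. Of the 9 names, 7 were found in the table of 34037 genes. CYBA and CYBB were not found under those names and are not analysed here. Of the 7, 5 had enough reads to enter the fit over 12639 genes, and NOX4 and NCF1 did not.

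The animals were adult Italian Mediterranean dairy buffaloes (Bubalus bubalis). The control group (n = 6) was fed a total mixed ration (TMR), and the treated group (n = 6) a TMR in which fresh ryegrass took the place of part of the feed, with green feed as 30% of the diet. Both diets were formulated to carry equal nitrogen and energy. A piece of ruminal wall was taken from each animal at slaughter, and each animal gave 1 strand-specific library of total RNA, with none pooled. The values are FPKM, fragments of a gene scaled by its length and by all counted fragments of the animal. The libraries held between 10531541 and 12948372 counted fragments. Gene levels in FPKM are scaled by gene length, so comparisons between genes depend on the gene lengths that were used. The precision of each level follows from its reads, which could be worked out exactly from the FPKM.

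Dual oxidases are membrane enzymes of epithelia that pass electrons from NADPH to oxygen and release hydrogen peroxide at the cell surface, where it serves haem peroxidases, signalling and defence against microbes. Each needs a maturation factor, DUOXA1 for DUOX1 and DUOXA2 for DUOX2, to leave the endoplasmic reticulum and reach the membrane. NOX1 and the phagocyte oxidase instead make superoxide and need cytosolic organizer and activator subunits, while NOX4 is active without these. The rumen is lined by a stratified squamous epithelium that lies on connective tissue and smooth muscle. In such tissue, fewer cells of a type and less RNA per cell cannot be told apart.

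DUOXA1 was the member measured a second way in the study, by rt-qPCR, whose values were not analysed here. Its primers are shown as the only sequences at hand that belong to a member; they were not placed on a transcript here, and the comparison of DUOXA1 rests on the FPKM. Both are written 5′ to 3′ in lower case, and hold 11 G or C bases of 21 and 12 of 20.
DUOXA1 forward: gatcacgttgaccacaggact
DUOXA1 reverse: gtcccccttcctcaggattc

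Among the members, the second dual oxidase and its maturation factor were by far the most abundant. DUOX2 (gene 102405152) had a mean level of 40.8 FPKM over the 12 animals and DUOXA2 (gene 102404608) of 42.2 FPKM. DUOX1 (gene 102403106) had 3.08 FPKM and DUOXA1 (gene 102403651) 2.42 FPKM. The other members were lower still, with 0.624 FPKM for NCF1 (gene 102413685), 0.560 FPKM for NOX1 (gene 102415136) and 0.0565 FPKM for NOX4 (gene 102407509).

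**Figure D1:**
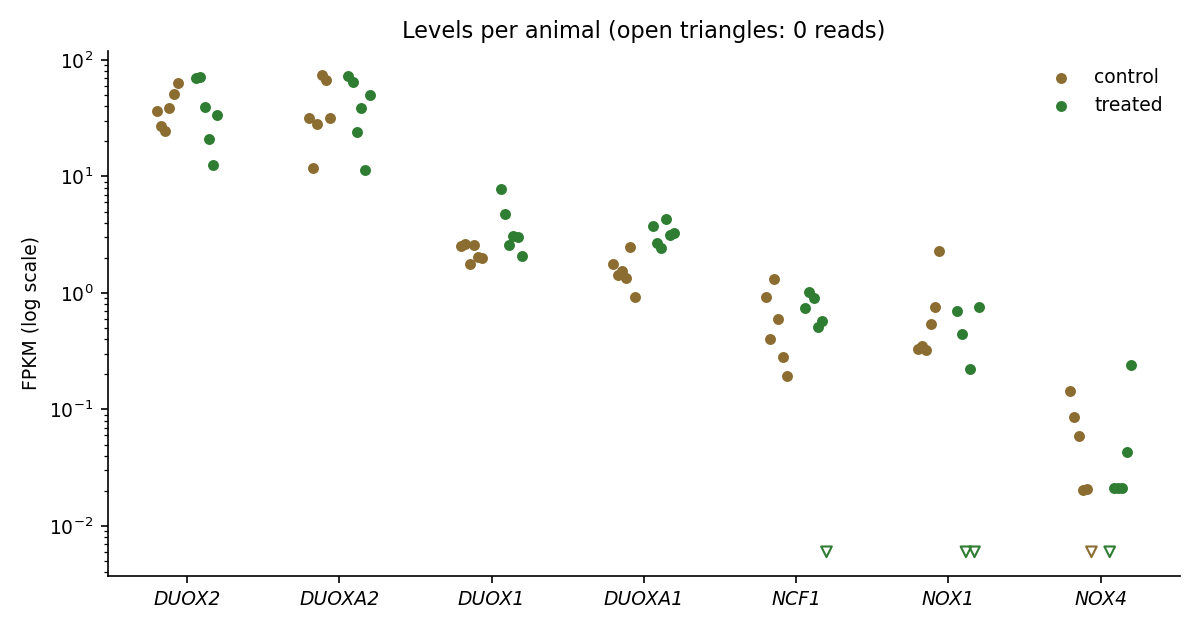
Level of each member in every animal, in FPKM on a log axis, in the order of the mean log2 level. Each point is 1 animal of the control or the treated group, and open triangles mark animals with 0 reads. DUOX2 and DUOXA2 sit between 11.3 and 74.9 FPKM, above every animal's level of DUOX1, whose highest value is 7.80 FPKM.

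The order was tested between neighbours within the same animals, by two-sided exact sign-flip tests of the log2 levels, adjusted over the 6 neighbouring pairs. DUOX2 and DUOXA2 differed by a log2 of 0.03 ± 0.69 (SD, n = 12, exact p = 0.873), with DUOX2 the higher in 6 of 12 animals. DUOXA2 was above DUOX1 in all 12 animals, by a log2 of 3.66 ± 0.96 (SD, n = 12, exact p = 0.000488, the smallest the test can give, adjusted 0.00147). DUOX1 was above DUOXA1 in 8 of 12 animals, by a log2 of 0.35 ± 0.62 (SD, n = 12, exact p = 0.0825, adjusted 0.124), so this pair was not separated beyond its spread.

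Below them, DUOXA1 was above NCF1 in 12 of 12 animals by a log2 of 2.36 ± 2.07 (SD, n = 12, exact p = 0.000488, adjusted 0.00147). NCF1 and NOX1 were not separated (log2 difference 0.62 ± 3.50, SD, n = 12, exact p = 0.558, adjusted 0.669). NOX1 was above NOX4 in 10 of 12 animals (2.71 ± 2.94, SD, n = 12, exact p = 0.0103, adjusted 0.0205). These last 3 differences include animals with 0 reads and depend on the 0.01 FPKM added before the logarithm.

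The dual oxidase level of every animal was therefore mostly DUOX2. DUOX2 made up between 80.5% and 97.0% of the summed FPKM of DUOX1 and DUOX2, with a median of 93.7%. DUOXA2 made up between 78.1% and 98.2% of the summed FPKM of both maturation factors, with a median of 94.7%. Both shares were lowest in treated replicate 5, the animal with the lowest DUOX2 and the lowest DUOXA2 level. Within a pair, the level of DUOXA1 was between 0.463 and 1.56 times that of DUOX1, and the level of DUOXA2 between 0.437 and 1.92 times that of DUOX2.

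DUOX1 and DUOXA1 were higher in the treated group, and these differences were among the values that led to the choice of these genes. They are given as descriptions, with no test. DUOX1, the catalytic enzyme of the pair, had in control animals a lowest, median and highest level of 1.78, 2.28 and 2.62 FPKM, and in treated animals of 2.08, 3.08 and 7.80 FPKM. The 2 highest treated animals, replicate 1 with 7.80 FPKM and replicate 2 with 4.77 FPKM, stood above the rest, while treated replicate 6, with 2.08 FPKM, lay below the control mean. The groups overlapped: 4 of the 6 treated animals exceeded every control animal.

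The mean level of DUOX1 was 2.25 ± 0.357 FPKM in control and 3.90 ± 2.12 FPKM in treated animals (SD, n = 6 per group), a ratio of 1.73. On the scale of log2(FPKM + 0.01), the difference was 0.66 with a standard error of 0.28. The difference leaned on 1 animal, since it was 0.43 without treated replicate 1. The reads of DUOX1 ran from 129 to 574 per animal. In treated replicate 1 its 574 reads gave an exact Poisson 95% interval of 7.18 to 8.47 FPKM, and in treated replicate 6 its 163 reads gave 1.78 to 2.43 FPKM. These intervals cover counting error only.

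DUOXA1 is the maturation factor of DUOX1 and lies next to it in the genome. Its lowest, median and highest levels were 0.922, 1.49 and 2.47 FPKM in control and 2.42, 3.21 and 4.32 FPKM in treated animals. The groups overlapped in a single pair of animals, control replicate 5 with 2.47 FPKM and treated replicate 3 with 2.42 FPKM. Those levels rest on 50 and 48 reads, with Poisson intervals of 1.84 to 3.26 and 1.79 to 3.21 FPKM. The other 5 treated animals exceeded every control animal.

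The mean level of DUOXA1 was 1.58 ± 0.521 FPKM in control and 3.26 ± 0.697 FPKM in treated animals (SD, n = 6 per group), a ratio of 2.06. The log2 difference was 1.08 with a standard error of 0.23, and between 0.93 and 1.22 with any 1 animal left out. All 6 treated animals lay above the control mean. DUOXA1 had only 16 to 86 reads per animal, and the variance of its reads was 3.99 times their mean in control and 2.99 times in treated animals, where counting error alone gives a variance equal to the mean.

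DUOX2 and DUOXA2 varied widely between animals in both groups, and their group means lay close together. DUOX2 had lowest, median and highest levels of 24.5, 37.7 and 63.6 FPKM in control and 12.6, 36.6 and 71.4 FPKM in treated animals. The treated animals held both the 2 highest levels, in replicates 2 and 1, and the 2 lowest, in replicates 5 and 4, so the control range lay inside the treated one. The means were 40.2 ± 14.8 and 41.3 ± 24.6 FPKM (SD, n = 6 per group). Their ratio was 1.03, and the log2 difference was −0.13 with a standard error of 0.39.

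DUOXA2, the maturation factor of DUOX2, had 11.8, 31.9 and 74.9 FPKM as its lowest, median and highest control levels and 11.3, 44.2 and 72.7 FPKM as its treated ones. Both groups thus spanned nearly the same range. The means were 40.9 ± 24.5 and 43.4 ± 23.5 FPKM (SD, n = 6 per group), the ratio was 1.06, and the log2 difference was 0.09 with a standard error of 0.49. Both signs turned with 1 animal left out: the log2 difference was 0.16 for DUOX2 without treated replicate 5 and −0.22 for DUOXA2 without control replicate 2, and 0.43 for DUOXA2 without treated replicate 5. The spread was far above counting error, since the variance of the reads of DUOX2 was 278 times their mean in control animals and 1070 times in treated animals, with 922 reads or more in each.

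**Figure D2:**
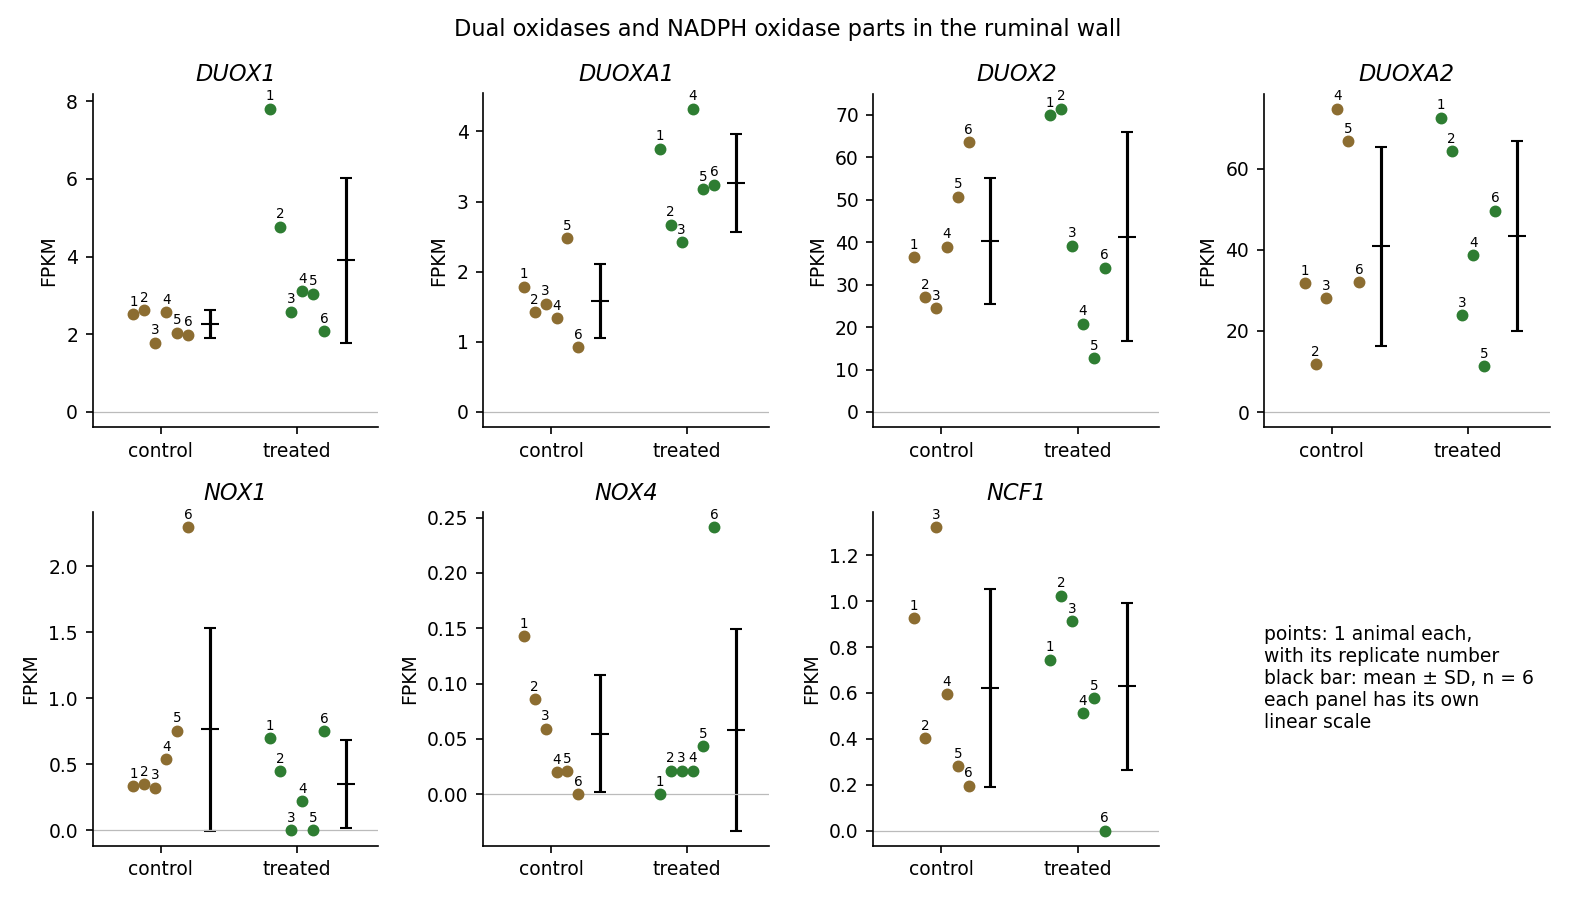
FPKM of the 7 members found, 1 panel per gene with its own linear scale from the values of the 6 control and 6 treated animals. Points are single animals with their replicate numbers and black bars are means ± SD. In DUOXA1 the groups touch only at 2.47 FPKM in control and 2.42 FPKM in treated animals, whereas in DUOX2 and DUOXA2 they cover each other.

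The other 3 members found had few reads. NOX1, the epithelial enzyme best known from the colon, had 14 to 81 reads in control animals and 0 to 32 in treated animals. Its lowest, median and highest levels were 0.323, 0.446 and 2.30 FPKM in control animals and 0, 0.335 and 0.751 FPKM in treated ones. Control replicate 6 alone held 81 of its reads and was the only animal through which NOX1 met the reads minimum. Treated replicates 3 and 5 had 0 reads, for which an upper limit of 3 reads was taken, or 0.0746 and 0.0756 FPKM (the two-sided exact Poisson 95% interval of 0 reads reaches 3.69 reads).

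The mean level of NOX1 was 0.767 ± 0.768 FPKM in control and 0.353 ± 0.333 FPKM in treated animals (SD, n = 6 per group), a ratio of 0.461, and the groups overlapped. Without control replicate 6 the control mean was 0.461 FPKM and the ratio 0.767. The fitted log2 difference of −2.13 (standard error 1.13) is set largely by the treated animals with 0 reads and by the value added before the logarithm. It was −0.34 when 1 FPKM was added, −1.73 without control replicate 6 and −1.38 without treated replicate 3.

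NOX4, which makes hydrogen peroxide directly, had between 0 and 12 reads per animal. Its highest levels were 0.143 FPKM in control replicate 1 and 0.241 FPKM in treated replicate 6. The mean was 2.67 reads in control and 2.83 in treated animals, under that limit of 3 reads, so no fold is given. NCF1, the organizer of the phagocyte oxidase, had 3 to 25 reads in control and 0 to 18 in treated animals. Its lowest, median and highest levels were 0.195, 0.498 and 1.32 FPKM in control and 0, 0.662 and 1.02 FPKM in treated animals. The means of 0.620 ± 0.432 and 0.629 ± 0.364 FPKM (SD, n = 6 per group) gave a ratio of 1.01, and neither group stood above the other.

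Over all 12639 genes tested with limma, 0% had an adjusted p-value below 0.05 (Benjamini-Hochberg). At an unadjusted p below 0.05, 1.23% of the genes passed (156 genes), with 0.783% higher and 0.451% lower in treated animals. That is below the share, equal to the threshold of 0.05, that would pass on average if no gene differed. The median log2 difference of all genes tested was 0.01 and the median standard error 0.2. No count of members past a threshold is read from this comparison, which served to choose them, and NOX1 entered it only through the group in which it was high.

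Whether a dual oxidase and its own maturation factor varied together from animal to animal was examined after the mean of each diet group had been taken from the log2 levels, so that the diet difference did not enter. Of 7 pairs of partners considered, 3 could be computed, and p-values come from 100000 two-sided permutations of the animals within their groups, adjusted over the 3 pairs. DUOX2 and DUOXA2 had r = 0.702 (n = 12 animals, permutation p = 0.0156, adjusted 0.0467) and rho = 0.615 (permutation p = 0.0478, adjusted 0.143). Treated replicates 1 and 2 were high and treated replicate 5 was low in both genes. The relation rested on those animals: without treated replicates 5 and 2, r was 0.486 (n = 10, permutation p = 0.161), and without treated replicate 5 alone 0.519 (permutation p = 0.0993). It was 0.836 within the treated group (n = 6, permutation p = 0.0377) and 0.519 within the control group (n = 6, permutation p = 0.314).

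DUOX1 and DUOXA1, whose group means were both higher in treated animals, had no relation past the test within the groups. Their r was 0.118 (n = 12, permutation p = 0.682, adjusted 0.682) and rho 0.028 (permutation p = 0.937, adjusted 0.937). It was 0.126 without treated replicates 1 and 2 (n = 10, permutation p = 0.743), 0.00056 within the control group (n = 6, permutation p = 1.0) and 0.228 within the treated group (n = 6, permutation p = 0.676). The animal with the highest DUOX1 level was treated replicate 1 and that with the highest DUOXA1 level was treated replicate 4. With 12 animals and few reads of DUOXA1, this does not show that the genes vary independently. DUOX1 and DUOX2 had r = 0.474 (n = 12, permutation p = 0.241, adjusted 0.361) and rho = 0.476 (permutation p = 0.191, adjusted 0.287), and r was −0.43 without treated replicates 1 and 2 (n = 10, permutation p = 0.259).

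**Figure D3:**
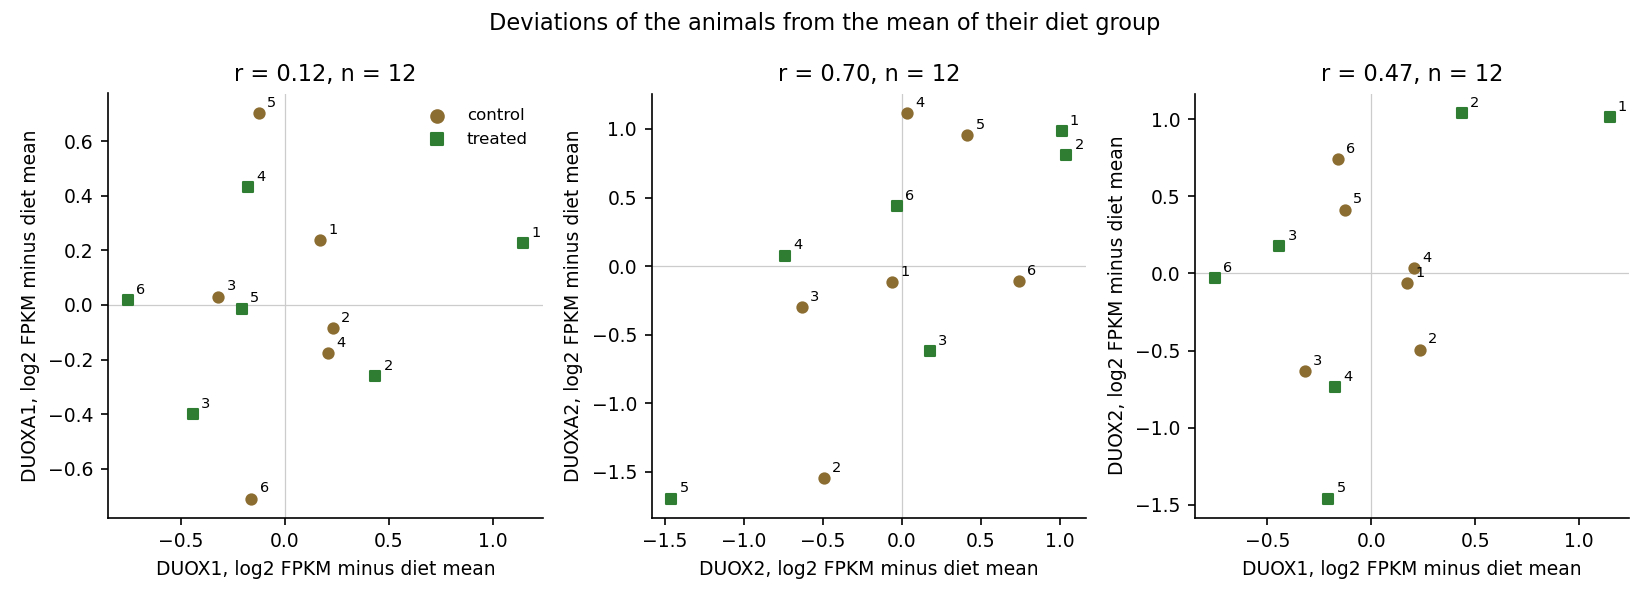
Each animal's log2 level minus the mean of its diet group, in log2 units, for DUOX1 and DUOXA1, DUOX2 and DUOXA2, and DUOX1 and DUOX2. Circles are control and squares treated animals, with replicate numbers. The points of DUOX2 and DUOXA2 run from treated replicate 5 at the lower left to treated replicates 1 and 2 at the upper right (r = 0.702), while those of DUOX1 and DUOXA1 are scattered (r = 0.118).

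The genes whose within-diet deviations were most like those of DUOX1 were PRICKLE3 (r = 0.959 over 12 animals), SIN3A (0.955), NAA15 (0.926), CHD2 (0.915) and CCDC47 (0.907). For DUOXA1 they were DND1 (0.898), ZGPAT (0.879), KLF6 (0.867), MATN2 (0.867) and C6H1orf56 (0.862). Among the 12638 other genes, DUOXA1 ranked 6621 by its likeness to DUOX1. The same listing for DUOX2 and DUOXA2 was chosen after their values were seen. For DUOX2 it was led by AFDN (0.937), KIF13B (0.935) and MYO1D (0.921), and for DUOXA2 by TGM1 (0.943), which encodes a transglutaminase that crosslinks the envelope of squamous cells, C4H10orf99 (0.939) and SLCO4A1 (0.922). DUOXA2 ranked 341 by its likeness to DUOX2. These values are descriptions over 12 libraries that share their scaling, and the leading genes were selected from all genes for their high r.

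In the reference annotation, which is of another buffalo assembly and was used only for the order of genes, the 4 dual oxidase genes lie side by side. The order of protein-coding genes there is SORD, DUOX2, DUOXA2, DUOXA1, DUOX1, SHF, SLC28A2 and GATM. In those gene models DUOXA2 overlaps DUOX2 and DUOXA1, so the counts of the overlapping parts may be affected, although the counting took the strand into account. How fragments of those parts were assigned was not examined. Along this order the log2 differences were −0.13 for DUOX2, 0.09 for DUOXA2, 1.08 for DUOXA1 and 0.66 for DUOX1, and whether they differ from each other was not tested.

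The outer neighbours were compared in the same fit. SHF, an adaptor protein gene next to DUOX1, had 2.12 ± 0.508 FPKM in control and 3.10 ± 1.15 FPKM in treated animals (SD, n = 6 per group), a log2 difference of 0.49 with a standard error of 0.27 (limma, adjusted p = 1.0). SORD, the sorbitol dehydrogenase gene next to DUOX2, had 39.6 ± 5.79 and 41.4 ± 5.50 FPKM (log2 difference 0.07, standard error 0.12). GATM, which encodes an enzyme of creatine synthesis, had 39.0 ± 5.51 and 33.8 ± 10.6 FPKM (−0.25, standard error 0.19), and SLC28A2 was at 0 in all 12 animals. None of the 3 tested neighbours had an adjusted or unadjusted limma p below 0.05.

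The partners, targets and regulators of these enzymes were taken as 5 lists of 55 genes, of which 52 were found and 39 tested. None passed the adjusted test. At an unadjusted p below 0.05, 0 were higher and 1 was lower in treated animals, against 0.783% and 0.451% of all genes tested. The median log2 difference of the 39 genes was −0.01, beside 0.01 for all genes tested, and their differences lay between −0.42 and 0.39.

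Among the other NADPH oxidase parts, 7 of 13 genes were tested and 0 passed in either direction (median log2 difference 0.01). RAC1, the small GTPase that assembles NOX1 and phagocyte oxidases, had 79.1 ± 9.02 FPKM in control and 80.5 ± 16.3 FPKM in treated animals. POLDIP2, a partner of NOX4, had 32.9 ± 7.82 and 29.5 ± 4.39 FPKM. NOXA1, the activator of NOX1, had 21.0 ± 6.79 and 26.3 ± 5.58 FPKM (SD, n = 6 per group, log2 difference 0.39, standard error 0.27, limma adjusted p = 1.0), far above the level of NOX1 itself. NOXO1, the organizer of NOX1, lay between 0.310 and 5.05 FPKM. The phagocyte subunit NCF4 had at most 9 reads. NOXO1 and NCF4 were named after their values were seen, as partners of members.

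Of the haem peroxidases, enzymes that use hydrogen peroxide, 4 of 6 genes were found by name. Of these, 2 were tested and 0 passed. LPO, lactoperoxidase, which works with dual oxidases on airway and gland surfaces, varied from 0.233 to 5.73 FPKM between animals, with means of 1.99 ± 2.13 and 2.16 ± 1.95 FPKM (SD, n = 6 per group). PXDN, a peroxidase of basement membranes, had 0.966 ± 0.416 and 1.38 ± 1.29 FPKM. MPO, the peroxidase of neutrophils, was at 0 in all 12 animals.

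Among the genes that remove superoxide and hydrogen peroxide, the 3 highest were above every member in mean level. Of 20 such genes, 16 were tested, with 0 higher and 1 lower at the unadjusted threshold (median log2 difference 0.01). PRDX6 had 4367 ± 958 FPKM in control and 3842 ± 457 FPKM in treated animals, GPX1 668 ± 188 and 740 ± 86.9 FPKM, and PRDX1 492 ± 46.4 and 462 ± 77.1 FPKM (SD, n = 6 per group). The gene past the unadjusted threshold was PRDX4, the peroxiredoxin of the endoplasmic reticulum, with 64.1 ± 5.97 and 53.2 ± 11.1 FPKM (log2 difference −0.29, standard error 0.13, limma adjusted p = 1.0). It was below the control mean in 5 of 6 treated animals. With each animal left out in turn, it stayed past the unadjusted threshold in 3 of 12 fits.

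Of the 3 aquaporin genes for channels that pass hydrogen peroxide, only AQP3 was tested, with 212 ± 56.8 FPKM in control and 179 ± 56.8 FPKM in treated animals (SD, n = 6 per group, log2 difference −0.27, standard error 0.26). The other two, AQP8 and AQP9, had at most 11 reads. Of the receptors and factors that act upstream of dual oxidases, 13 of 13 were tested and 0 passed, with a median log2 difference of −0.05 and a range from −0.12 to 0.25. The most abundant were IFNGR2, an interferon gamma receptor chain, with 47.0 ± 5.83 and 51.8 ± 13.7 FPKM, the kinase JAK1 with 50.4 ± 2.58 and 47.9 ± 2.71 FPKM, and IL13RA1, an interleukin receptor chain, with 43.4 ± 7.42 and 41.2 ± 5.10 FPKM (SD, n = 6 per group).

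**Figure D4:**
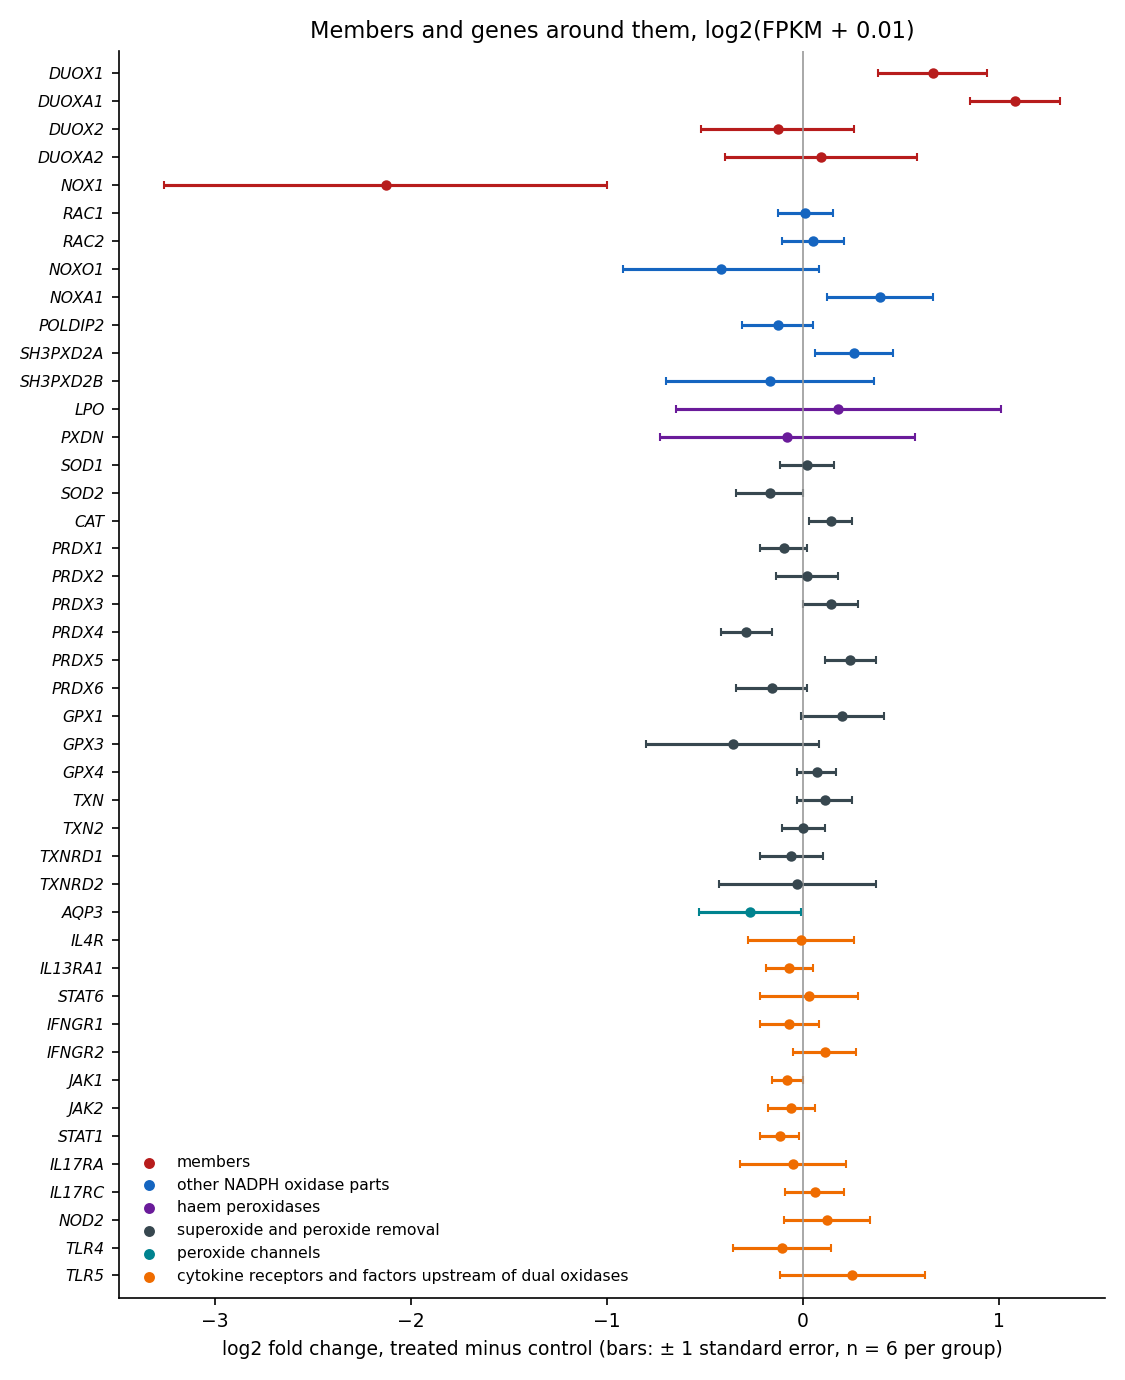
Log2 differences of treated minus control on the scale of log2(FPKM + 0.01), with bars of 1 standard error, n = 6 animals per group. The 5 members tested are at the top, followed by the 39 tested genes of 5 lists in separate colours. The listed genes lie between −0.42 and 0.39. DUOX1 (0.66) and DUOXA1 (1.08) were chosen with these differences known, and NOX1 (−2.13), with animals at 0 reads, has the widest bar.

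Marker genes of the tissue's cell types were read in the same libraries, as the mean log2 level of each list. All 18 squamous epithelium markers found, of 21, were tested and 0 differed at the unadjusted threshold. KRT5 and KRT15, keratins of the basal layer, led the list with up to 2372 FPKM, as a wall with squamous epithelium should hold. The epithelial mean was 7.13 in control and 7.21 in treated animals (exact permutation p = 0.717, two-sided), with ranges of 6.65 to 7.43 and 6.43 to 7.71. Control replicate 6 and treated replicate 6 had the lowest epithelial means of their groups. Their KRT5 was at 451 and 498 FPKM, where every other animal had at least 1179 FPKM. Not every marker was low in them. DSG3 was at 971 FPKM in control replicate 6 and PERP at 941 FPKM in treated replicate 6, each the highest of all animals. Control replicate 6 had the lowest DUOXA1 level, and treated replicate 6 the lowest treated DUOX1 level. Not every member was low in them either. Control replicate 6 had the highest control DUOX2 level, 63.6 FPKM. Treated replicate 6 had 3.24 FPKM of DUOXA1, beside a treated median of 3.21 FPKM.

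With the epithelial mean as a covariate, the log2 difference was 0.57 (standard error 0.20) for DUOX1 and 1.04 (standard error 0.22) for DUOXA1. Without control replicate 6 and treated replicate 6, an alternative chosen after seeing the data, it was 0.77 (standard error 0.28) for DUOX1, 0.93 (standard error 0.22) for DUOXA1, 0.02 (standard error 0.44) for DUOX2 and −0.02 (standard error 0.58) for DUOXA2.

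Smooth muscle and fibroblast markers were lower on average in treated animals, though not beyond their spread. The 10 smooth muscle markers, led by SMTN and TAGLN, differed by a log2 of −1.01 in their mean (exact permutation p = 0.0541, adjusted 0.325 over the 6 lists), with summed levels of 29.7 to 51.6 FPKM in control and 16.9 to 42.3 FPKM in treated animals. Of the 7 of them tested singly, 0 were higher and 1 was lower at the unadjusted threshold, DES, which encodes the muscle filament protein desmin, with 3.22 ± 1.40 and 1.66 ± 0.976 FPKM (SD, n = 6 per group, log2 difference −1.04, standard error 0.42, limma adjusted p = 1.0). CNN1, LMOD1 and ACTG2 had too few reads to be tested but enter the smooth muscle mean, and CNN1 and ACTG2 had animals at 0 FPKM. That mean therefore depends on the 0.01 FPKM added before the logarithm. SMTN, the highest of the list, had 13.4 ± 4.98 and 13.5 ± 5.57 FPKM (log2 difference −0.03, standard error 0.42). The 7 fibroblast markers, led by COL3A1 and LUM, differed by −0.68 (exact permutation p = 0.297, adjusted 0.890), with summed levels of 40.8 to 253 FPKM and 16.6 to 169 FPKM. Treated replicate 1, which had the highest DUOX1 level, had the lowest fibroblast mean of all.

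From animal to animal within the diets, DUOX1 moved with some of these markers. This was examined after the data had been seen, for DUOX1 and DUOXA1 with 6 marker lists each, by permutation within the groups and with adjustment over the 12 relations. DUOX1 was lower where fibroblast markers were higher, with r = −0.849 (n = 12, permutation p = 0.00182, adjusted 0.0218) and rho = −0.839 (permutation p = 0.00186, adjusted 0.0223), and r was −0.666 without treated replicates 1 and 6 (n = 10, permutation p = 0.0498). With the epithelial markers DUOX1 had r = 0.748 (n = 12, permutation p = 0.0164, adjusted 0.0981) and rho = 0.748 (permutation p = 0.00579, adjusted 0.0347), and r was 0.780 without control replicate 6 and treated replicate 6 (n = 10, permutation p = 0.014). With the smooth muscle markers it had r = −0.43 (permutation p = 0.341, adjusted 0.681) and rho = −0.566 (permutation p = 0.142, adjusted 0.341). Many genes varied with DUOX1 within the diets: DUOX2, with r = 0.474, ranked 3110 among the 12638 other genes by its likeness. How many genes follow the marker means as closely was not examined, so these relations are not shown to be particular to DUOX1.

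For DUOXA1 the corresponding r was −0.134 with fibroblast (permutation p = 0.661, adjusted 0.721), 0.429 with epithelial (permutation p = 0.149, adjusted 0.448) and 0.208 with smooth muscle markers (permutation p = 0.465, adjusted 0.685). Their rho was 0.070, 0.392 and 0.266, with permutation p of 0.836, 0.232 and 0.404 and adjusted values of 0.836, 0.463 and 0.606. No relation of DUOX1 or DUOXA1 with the other 3 lists passed after adjustment. For DUOX2 and DUOXA2, in this order, r was taken without a test. It was 0.16 and 0.097 with epithelial, −0.513 and −0.224 with fibroblast, and −0.684 and −0.56 with smooth muscle markers. The part of fibroblasts and smooth muscle in the diet differences of DUOX1 and DUOXA1 was not tested.

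Leukocyte and macrophage markers, led by CD14 and PTPRC, differed by −0.02 (exact permutation p = 0.92) and endothelium markers, led by PECAM1 and VWF, by −0.10 (exact permutation p = 0.825). Thyroid markers, led by PAX8 and TG, reached at most 0.933 FPKM in any animal and TSHR was at 0 in all 12. DUOX2 and DUOXA2 are genes also abundant in the thyroid, and the source of their RNA was not tested. The smallest adjusted p over the 6 marker lists was 0.325.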

How the data were processed

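Ruminal wall RNA of 12 buffaloes, 6 per diet, was analysed from the deposited FPKM values. According to the study's methods, the authors checked reads with FastQC 0.11.5, trimmed them with Trimmomatic 0.39, aligned them with STAR 2.5.2b to the UOA_WB_1 genome and counted fragments per gene and strand with featureCounts 2.0.0. The tool and gene lengths behind the deposited FPKM are not given in the sources used here. The table holds 16 columns, of which 4 match no sample description and were not used. Groups and replicate numbers came from the sample labels, each replicate being a separate animal.

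Within a gene the deposited FPKM are whole multiples of 1 read, which gave whole reads for all 22972 genes above 0 (tolerance 1e-05). Genes with at least 42 reads, scaled to equal depth, in at least 1 animal were tested with limma 3.58.1 in R 4.3.3 (lmFit, eBayes with trend) on log2(FPKM + 0.01). On that scale the added 0.01 draws fold changes of low genes towards 0, while animals at 0 can push them past the ratio of means, as for NOX1. Levels, correlations and marker lists were tested by exact or permutation tests in Python 3.11.15 with scipy 1.17.1. The limma step was tested on simulated counts, drawn independently for each gene, so that test does not cover variation shared between genes.

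The members and lists were chosen with earlier results of these data known. The text names the members and, of the 5 surrounding lists, genes with an unadjusted p below 0.05 or among the 3 highest in FPKM. It also names the 2 highest markers of each list and the neighbours of the locus. Of the genes most like a member, it names 5 each for DUOX1 and DUOXA1 and 3 each for DUOX2 and DUOXA2. The other markers, DSG3, PERP, DES, CNN1, LMOD1, ACTG2 and TSHR, were named after their values were seen. The listing of the most like genes for CYBB was not made, since it was not found, nor for NOX4, with too few reads. Alternatives were pseudocounts of 0.1 and 1, other filters, median-ratio scaling, voom on the reads, the replicate block, the epithelial covariate and each animal left out.

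Replicate numbers shared by the groups name different animals.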

Additional observations from a re-analysis of the deposited data

Results flagged for a closer look

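Values that stood apart from the rest of their group were searched for in 14 groups of 6 animals, 7 members in each diet, by the gap to the nearest animal as a share of the group's range. Chance alone marks about 1 in 20 such groups if the values are normally distributed. For genes with few reads, as flagged here, that rate need not hold and was not worked out. NOX1 in control replicate 6 was at 2.30 FPKM with 81 reads, where the next control animal had 0.755 FPKM (share of the range 0.781). NOX4 in treated replicate 6 was at 0.241 FPKM with 12 reads, where the next treated animal had 0.0432 FPKM (share of the range 0.821). Both animals had the lowest epithelial marker means of their groups. Whether that bears on NOX1 or NOX4 was not tested.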

How the results depend on the processing

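Of 369 values recomputed under alternatives, 334 stayed on their side of the threshold or, for counts and values with no test, were not marked as moved. That mark was coarse. The log2 difference of NOX1, −2.13, was not marked at −0.34 with 1 FPKM added. Nor was the number of all genes past the unadjusted threshold, 156, at 208 without control replicate 3. The sign turned in 17 of these 334, none of them past its threshold before or after where it had a test: 4 each for the log2 differences of DUOX2 and DUOXA2 and for the level of DUOX2 against DUOXA2, 2 each for the r of DUOX1 with DUOXA1 and with DUOX2, and 1 for the level of NCF1 against NOX1. No gene passed the adjusted test under any alternative. The number of listed genes past the unadjusted threshold, 1, became 2 with all genes above 0, with the epithelial covariate and without the animal of each group lowest in epithelial markers (chosen after seeing the data), and 0 with median-ratio scaling and with voom. Over all genes the 156 of 12639 tested became 562 of 22972 with all genes above 0. They became 346 of 17177 with a mean of at least 0.1 FPKM. Of the same 12639 genes, 288 passed with the epithelial covariate and 316 without those 2 animals. With each animal left out in turn, these counts lay between 0 and 2 and between 142 and 328, the last without treated replicate 6. PRDX4 kept its unadjusted call in 3 of 12 such fits (log2 difference −0.38 to −0.23). The level of DUOX1 over DUOXA1 lay between 0.28 and 0.43 and passed the unadjusted threshold without treated replicate 4 (0.42, exact p = 0.044) or 6 (0.43, exact p = 0.0322). NOX1 over NOX4 was 1.74 (exact p = 0.281) in treated animals alone. The r of DUOX2 and DUOXA2 lay between 0.519 and 0.757 with 1 animal left out, at 0.519 in control animals alone and at 0.486 without the 2 farthest animals. The cause was not tested.

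With the replicate block, 320 genes of all tested and 2 listed genes passed the unadjusted threshold. Same-numbered animals of both groups, which are different animals, had correlations of their deviations between −0.00835 and 0.413, not all above 0.1, and 3 of 6 correlated best with their own number, so the block is given here only. Under it the log2 difference was 0.66 for DUOX1 and 1.08 for DUOXA1, with standard errors of 0.21 and 0.22.

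Depth limits NOX4, NCF1 and NOX1, whose reads were at or near 0 in several animals, and leaves DUOXA1 with 16 to 86 reads.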
